A study of Mus musculus with 10 samples.

Results

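The 48 lysosomal genes described here were measured in leukaemia cells grown in immunocompetent and in immunodeficient mice. They encode lysosomal enzymes, membrane proteins, the transcription factors of lysosomal genes and the receptors that sort proteins to the lysosome. All 48 were found by gene symbol among the 38215 genes of the deposited table. The cells were GFP+ splenocytes of mice with acute myeloid leukaemia (AML). The disease had been started by retroviral transfer (MSCV-IRES-GFP) of AML1-ETO and Nras G12D into lineage-depleted bone marrow cells, and was first grown in hosts without T, B or NK cells (Rag2-/-γc-/-). GFP+ spleen cells of those mice were then passed to 5 C57BL/6J recipients (libraries 1, 3, 4, 5 and 6), which are immunocompetent, and to 5 Rag2-/-γc-/- recipients (libraries 7 to 11). Both groups therefore carried the same oncogenes and the same earlier passage without lymphocytes, and differed in the second host. Ages, and the number of primary leukaemias behind the 10 recipients, are not given in the labels, so the p-values measure the spread between recipients only.

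The lysosome breaks down proteins, sugars and lipids in an acid space filled by a proton pump. Most of its soluble enzymes are tagged with mannose 6-phosphate and carried there by mannose 6-phosphate receptors, while sortilin-type receptors carry others. The transcription factors TFEB, TFE3 and MITF bind CACGTG-type sequences near many lysosomal genes and raise their transcription. In myeloid cells the cathepsins also cut antigens for presentation and activate other proteases.

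Expected counts summed to 28157745 to 62461126 per library, and 13966 genes, among them 47 of the 48, had enough counts to be tested. Atp6v0d2, a proton pump subunit best known from osteoclasts, was left untested, at 0.0252 to 0.702 CPM (counts scaled to the library size) in C57BL/6J libraries and 0 to 0.213 CPM in Rag2-/-γc-/- libraries. The recipients' missing genes cannot be checked in the leukaemia, which has its own, and Rag2 was detected at 1.52 to 6.58 CPM over the 10 libraries. The T cell receptor gene Trac was at 0 in all 5 Rag2-/-γc-/- libraries and at 0.0870 to 2.35 CPM in the C57BL/6J libraries. Of the 7 leukaemic myeloid markers, Ptprc, Spi1 and Itgam were at 319.8 CPM or more in every library, and these and Fcgr3 (log2 fold change -0.98) did not pass the test. Kit rose (4.30), with 3.21 to 7.52 CPM in C57BL/6J libraries and 0.163 to 0.434 CPM in Rag2-/-γc-/- libraries. Cd34 fell by 1.38 on the log2 scale, with 98.55 to 169 CPM in C57BL/6J libraries and 202 to 489 CPM in Rag2-/-γc-/- libraries, and Cd33 fell by 1.41. Libraries within the Rag2-/-γc-/- group stood apart from each other: on the leading principal component of all tested genes, libraries 7, 8 and 9 scored -61.6 to -49.6, libraries 10 and 11 scored 4.9 and -8.7, and the C57BL/6J libraries 20.2 to 57.5. C57BL/6J library 1 also differed from its group, with 1.34% of counts from mitochondrial genes, against 2.91% or more in each of the others, and a chi-square per degree of freedom of 109 to 150 against its group mates, where the other C57BL/6J pairs had 16.6 to 48. Results are therefore given with and without these libraries where they differ.

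The lysosomal genes of this list were lower more often than higher in cells from C57BL/6J recipients, with 6 of the 10 decreases among proteases. The list was chosen with earlier results of these data known. Among 98 further tested lysosomal genes, described below, 7.14% fell and 2.04% rose. Of the 47 tested genes, 10 fell (21.3%) and 2 rose (4.26%) (quasi-likelihood F test of edgeR, threshold 0.05 on p adjusted by Benjamini-Hochberg over all tested genes). Over all 13966 tested genes, 4.47% fell and 3.32% rose, or 7.79% in either direction. Among genes averaging at least 10 CPM, 4.19% of 8761 fell and 2.65% rose, against 8 and 1 of the 42 lysosomal genes at that level. C57BL/6J and Rag2-/-γc-/- values were fully separate for 9 of the 47 genes (19.1%, beside 8.50% of all tested genes), 8 of them lower and 1 higher in C57BL/6J (beside 4.37% and 4.13%). The median log2 fold change of the 47 was -0.11, beside 0.00 over all tested genes. The genes that fell were Ctsb, Ctsd, Ctse, Ctsh, Ctsz, Lgmn, Lamp1, Galns, Sort1 and Sorl1, and those that rose were Arsb and Mitf. In bulk RNA, fewer cells of a type and less RNA per cell cannot be told apart. All 12 stayed past the threshold without Rag2-/-γc-/- libraries 10 and 11, a fit that called 36.7% of all its tested genes. Only Lamp1 did without libraries 7, 8 and 9, a fit of 5 libraries against 2 that called 1.88% of all its tested genes. In 8 of the 10 genes that fell, libraries 10 and 11 were both under libraries 7, 8 and 9, as in 53.4% of the 624 genes that fell in the whole table.

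**Figure D1:**
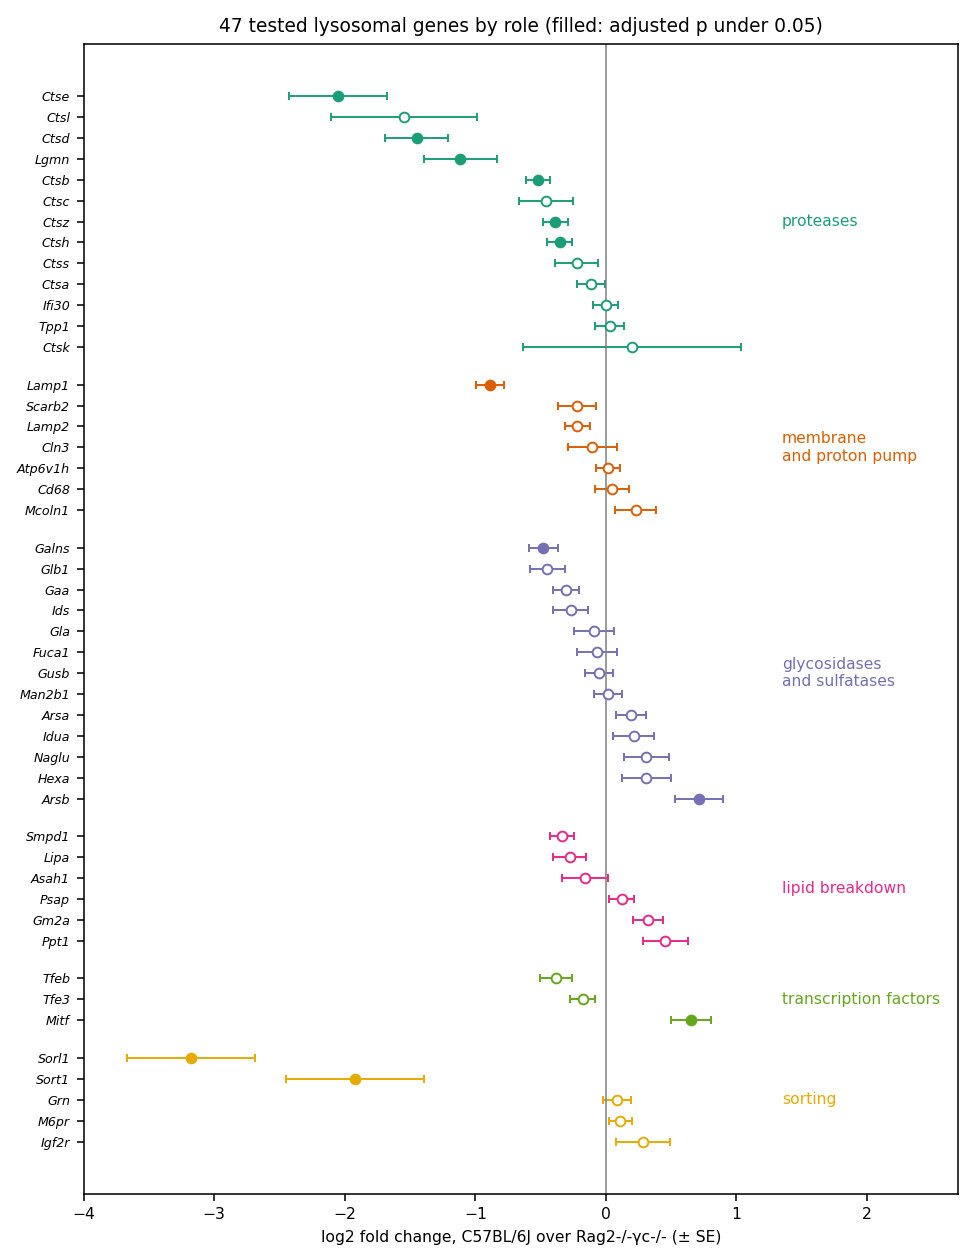
Log2 fold change (C57BL/6J over Rag2-/-γc-/-, horizontal axis) with its standard error for the 47 tested lysosomal genes, grouped by role down the page, with filled points for an adjusted p under 0.05. Sorl1, at -3.18, lies farthest to the left and 6 of 13 proteases are filled on the left side, while Arsb (0.71) and Mitf (0.65) are the filled points on the right.

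Promoter sequences are shown for 4 of the 12 genes, 3 that fell and carry the CACGTG core of TFEB-family binding sites and 1 that rose and does not. The contrast between these 4 comes from that choice and is no result. The window of Ctsz, which fell and has no match, is among those not shown. Each sequence is the RefSeq window of 300 bases on GRCm38.p6 that holds the annotated start, written 5′ to 3′ on the gene's strand. Capitals mark CACGTG, or TCACGTGA where the match is that long. The windows are chr8:13158911-13159210 (plus strand) for Lamp1, chr7:142387778-142388077 (minus strand) for Ctsd, chr9:42124248-42124547 (minus strand) for Sorl1 and chr13:93771429-93771728 (plus strand) for Arsb.
Lamp1: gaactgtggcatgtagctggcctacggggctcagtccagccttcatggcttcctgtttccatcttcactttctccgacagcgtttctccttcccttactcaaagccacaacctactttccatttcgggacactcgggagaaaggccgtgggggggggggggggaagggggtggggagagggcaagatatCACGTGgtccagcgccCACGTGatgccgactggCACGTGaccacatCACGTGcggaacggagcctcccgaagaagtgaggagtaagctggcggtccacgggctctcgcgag
Ctsd: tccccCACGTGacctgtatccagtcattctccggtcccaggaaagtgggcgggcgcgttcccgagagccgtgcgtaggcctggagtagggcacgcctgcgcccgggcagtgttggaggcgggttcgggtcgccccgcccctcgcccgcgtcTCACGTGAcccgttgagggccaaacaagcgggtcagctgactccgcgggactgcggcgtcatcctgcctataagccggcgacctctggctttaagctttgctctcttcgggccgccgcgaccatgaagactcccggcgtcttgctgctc
Sorl1: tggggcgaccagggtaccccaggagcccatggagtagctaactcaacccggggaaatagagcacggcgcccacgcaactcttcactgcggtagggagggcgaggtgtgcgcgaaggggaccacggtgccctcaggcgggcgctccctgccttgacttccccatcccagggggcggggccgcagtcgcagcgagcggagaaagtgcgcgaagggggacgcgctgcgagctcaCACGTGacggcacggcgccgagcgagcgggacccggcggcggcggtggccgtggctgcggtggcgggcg
Arsb: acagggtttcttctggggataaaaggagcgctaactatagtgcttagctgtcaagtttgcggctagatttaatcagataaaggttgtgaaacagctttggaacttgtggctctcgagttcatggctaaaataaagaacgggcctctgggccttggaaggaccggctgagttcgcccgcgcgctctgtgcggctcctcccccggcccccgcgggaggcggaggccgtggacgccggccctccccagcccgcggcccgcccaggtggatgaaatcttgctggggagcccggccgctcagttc
Distances are from the RefSeq start in each window. The gene coordinates given with the values of Lamp1 and Ctsd begin upstream of that start, so that the nearest Lamp1 copy and the Ctsd TCACGTGA lie within them. In the Lamp1 window 4 copies of CACGTG begin 61, 45, 28 and 15 bases before the start. The Ctsd window holds TCACGTGA 99 bases and CACGTG 245 bases before the start, and the Sorl1 window holds CACGTG 19 bases before it. A further RefSeq window of Sorl1, downstream of this start, has no match. These motifs read the same on both strands, and CACGTG is contained in TCACGTGA. RefSeq windows were matched for 39 of the 48 genes. In any window of the gene, CACGTG stood in 15 of them (38.5%), beside 8.09% of the 27025 genes of the table, and TCACGTGA in 7 (17.9%, beside 1.12%). Among genes that fell, Ctsd, Lamp1 and Sorl1 held CACGTG at the gene's start and Ctsz did not. Lgmn had no match there and 1 in a further window inside the gene, and no window was matched for Ctsb, Ctse, Ctsh, Galns and Sort1. Of 32 matched genes with no call, 11 held it too. Neither Arsb nor Mitf held it. The match is a description of these letters and no measure of binding.

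Proteases showed the most decreases. Of 13 tested, 6 fell and none rose by edgeR, beside 4.47% lower and 3.32% higher of all tested genes. DESeq2 counted 7 lower and 0 higher, beside 8.27% lower and 5.75% higher of all genes it tested. At an unadjusted p under 0.05 in edgeR there were 8 lower and 0 higher, beside 14.1% lower and 11.5% higher of all tested genes. Their median log2 fold change was -0.39. Cathepsin D, encoded by Ctsd (chromosome 7, 142371148 to 142388038, GRCm38, minus strand), is the main aspartic protease of lysosomes. Ctsd had 95.05, 54.0, 70.3, 51.2 and 31.6 CPM in C57BL/6J libraries 1, 3, 4, 5 and 6, against 143, 207, 160, 151 and 163 CPM in Rag2-/-γc-/- libraries 7 to 11. The groups did not overlap, and C57BL/6J library 6 was the lowest of all. The log2 fold change was -1.45 ± 0.24 (standard error; in edgeR, adjusted p = 0.00454), and it stayed between -1.67 and -1.28 in the fits that left out any 1 library. Without Rag2-/-γc-/- libraries 7, 8 and 9 it was -1.37 (adjusted p = 0.08).

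Ctse, for the related aspartic protease cathepsin E (chromosome 1, 131638306 to 131675503), was scarce. It had 1.74, 0.814, 0.888, 0.609 and 0.805 CPM in C57BL/6J libraries, against 6.41, 4.76, 4.45, 2.09 and 2.30 CPM in Rag2-/-γc-/- libraries 7 to 11. The highest C57BL/6J value, in library 1, came close to Rag2-/-γc-/- library 10. Ctse fell by 2.05 ± 0.38 on the log2 scale (standard error; in edgeR, adjusted p = 0.00813), and was at -1.18 without libraries 7, 8 and 9 (adjusted p = 0.22).

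Ctsb encodes cathepsin B, an abundant cysteine protease (chromosome 14, 63122462 to 63145919). In C57BL/6J libraries it had 554, 564, 629, 607 and 567 CPM, against 902, 920, 895, 754 and 717 CPM in Rag2-/-γc-/- libraries 7 to 11. Its C57BL/6J values lay close together, and all were under the lowest Rag2-/-γc-/- value. The change was small, at -0.52 ± 0.09 on the log2 scale (standard error; in edgeR, adjusted p = 0.00674), and held in every fit without 1 library, but not without libraries 7, 8 and 9 (-0.33, adjusted p = 0.17). An opposite-strand gene that overlaps it, Fdft1, averaged 819.4 expected counts and had a log2 fold change of 0.71 in the other direction.

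Lgmn encodes legumain, an asparaginyl endopeptidase that cuts other lysosomal proteases into their mature forms (chromosome 12, 102394084 to 102439813). It had 92.7, 71.7, 103, 96.8 and 41.9 CPM in C57BL/6J libraries, against 220, 232, 200, 95.3 and 133 CPM in Rag2-/-γc-/- libraries 7 to 11. The groups overlapped, because Rag2-/-γc-/- library 10 lay under C57BL/6J libraries 4 and 5. Its log2 fold change of -1.12 ± 0.28 (standard error; in edgeR, adjusted p = 0.0348) did not pass with the omission of any 1 of C57BL/6J libraries 1, 3, 5 and 6 and Rag2-/-γc-/- libraries 7, 8 and 9 (highest adjusted p 0.086). Without libraries 7, 8 and 9 together it was -0.49 (adjusted p = 0.6).

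The smaller decreases were those of Ctsz and Ctsh, which encode the exopeptidases cathepsin Z and cathepsin H. Ctsz (chromosome 2, 174427493 to 174439039) had 231, 293, 282, 256 and 279 CPM in C57BL/6J libraries, against 402, 339, 366, 331 and 316 CPM in Rag2-/-γc-/- libraries 7 to 11, with no overlap. It fell by 0.39 ± 0.09 on the log2 scale (standard error; in edgeR, adjusted p = 0.03), and did not pass with the omission of any 1 of C57BL/6J libraries 4, 5 and 6 and Rag2-/-γc-/- libraries 7, 8 and 9 (highest adjusted p 0.08). Ctsh (chromosome 9, 90054152 to 90076089) had 126, 135, 135, 119 and 150 CPM in C57BL/6J libraries, against 196, 176, 168, 160 and 147 CPM in Rag2-/-γc-/- libraries 7 to 11. C57BL/6J library 6 reached into the Rag2-/-γc-/- range. Ctsh fell by 0.35 ± 0.10 (standard error; in edgeR, adjusted p = 0.0458) and kept its call only without Rag2-/-γc-/- library 10 or 11, while leaving out any 1 of the other 8 libraries lost it (highest adjusted p 0.11). Neither gene was past the threshold without libraries 7, 8 and 9 (adjusted p = 0.36 for Ctsz and 0.52 for Ctsh).

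The other 7 genes of this role did not pass the edgeR test. Ctss, for cathepsin S, which trims the invariant chain of MHC class II, was the most abundant cathepsin gene per kilobase of exon, at 377 CPM per kb in C57BL/6J and 441 CPM per kb in Rag2-/-γc-/- recipients. It had 417, 585, 529, 508 and 524 CPM in C57BL/6J libraries, against 766, 702, 646, 432 and 449 CPM in Rag2-/-γc-/- libraries 7 to 11. Rag2-/-γc-/- libraries 10 and 11 thus lay among the C57BL/6J values, and the log2 fold change of -0.22 ± 0.17 (standard error) became 0.22 without libraries 7, 8 and 9. Ctsc, which encodes the activator of granule serine proteases, had the same order of libraries, with 345 to 541 CPM in C57BL/6J libraries, 703 to 832 CPM in Rag2-/-γc-/- libraries 7, 8 and 9, and 405 and 467 CPM in libraries 10 and 11. Ifi30, for the thiol reductase GILT that opens disulphide bonds of antigens, was at 502, 601, 525, 527 and 588 CPM in C57BL/6J libraries, against 645, 542, 582, 477 and 501 CPM in Rag2-/-γc-/- libraries 7 to 11. The ranges of Ifi30 coincided, with a log2 fold change of 0.00 ± 0.10 (standard error; in edgeR, adjusted p = 0.991). Ctsa, for a carboxypeptidase that also protects galactosidase, and Tpp1, for a tripeptidyl peptidase, had log2 fold changes of -0.11 and 0.03. Ctsk, the cathepsin of osteoclasts, did not exceed 1.47 CPM in any library, and Ctsl is described below beside the macrophage markers.

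**Figure D2:**
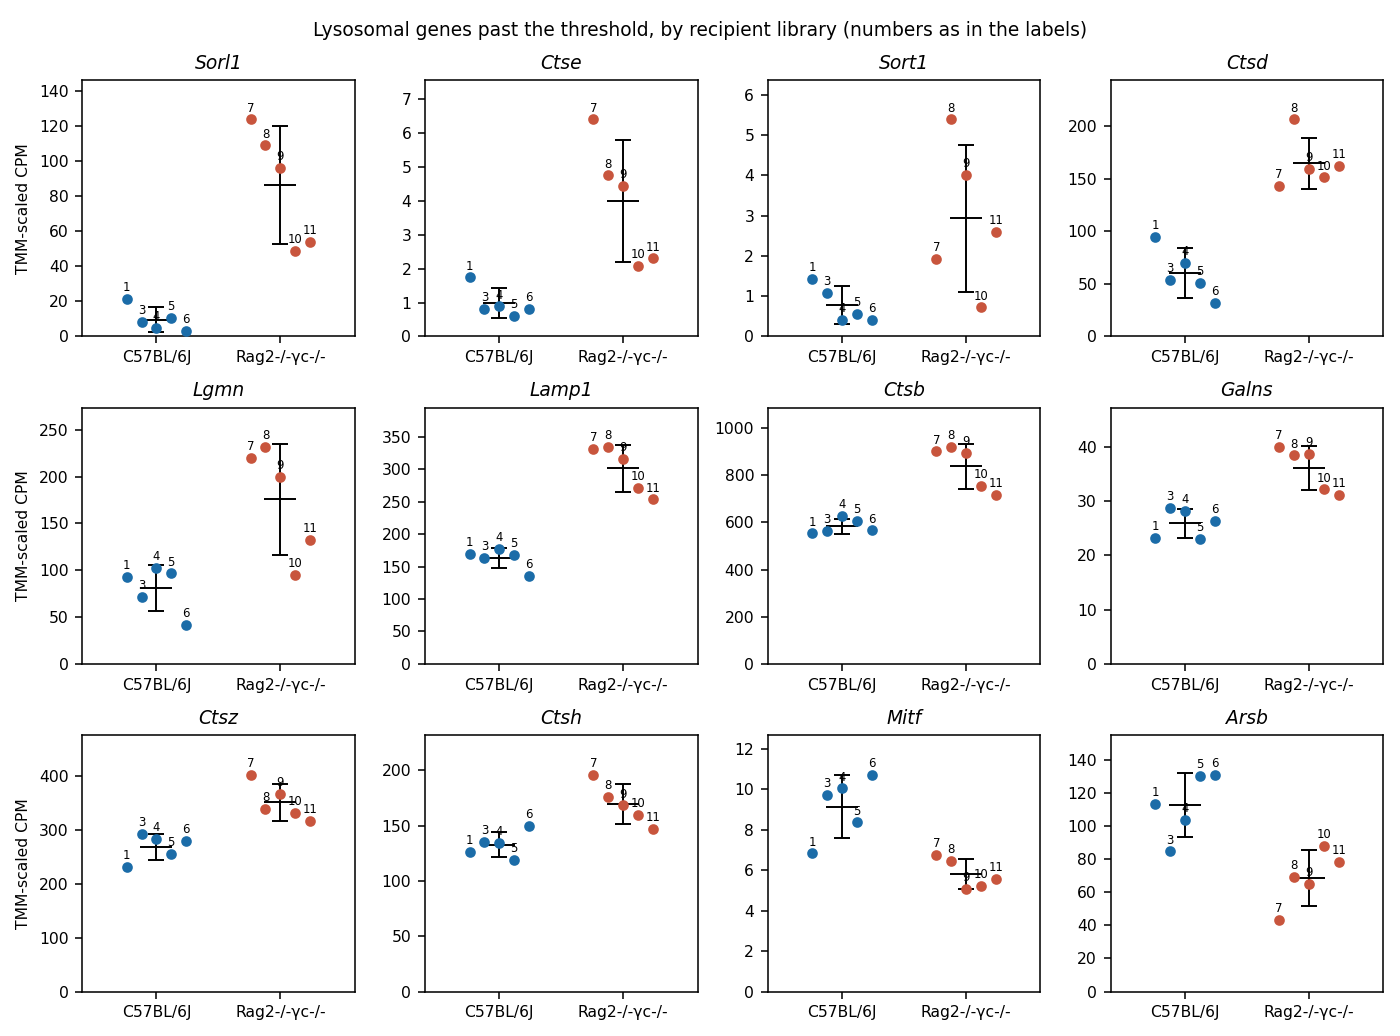
TMM-scaled CPM of the 12 lysosomal genes past the threshold in each library (points, numbered as in the labels), with mean and SD of the 5 libraries of each group, C57BL/6J left and Rag2-/-γc-/- right, each panel starting at 0. The C57BL/6J points of Lamp1 (136 to 178 CPM) lie under all Rag2-/-γc-/- points (253 to 334 CPM), while those of Lgmn, Ctsh, Sort1 and Arsb overlap the other group.

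Of the 7 tested genes for membrane proteins and proton pump subunits, Lamp1 was the 1 past the threshold, beside 7.79% of all tested genes. Lamp1 (chromosome 8, 13159135 to 13175338, GRCm38, plus strand) encodes a heavily glycosylated protein that lines the lysosomal membrane and reaches the cell surface when granules or lysosomes fuse with it. It had 169, 164, 178, 168 and 136 CPM in C57BL/6J libraries 1, 3, 4, 5 and 6, against 331, 334, 315, 271 and 253 CPM in Rag2-/-γc-/- libraries 7 to 11. The groups were well separated, and both subsets of the Rag2-/-γc-/- libraries lay above every C57BL/6J library. Lamp1 fell by 0.89 ± 0.11 on the log2 scale (standard error; in edgeR, adjusted p = 0.00062), with -0.94 to -0.83 in the fits without 1 library and -0.68 (adjusted p = 0.026) without libraries 7, 8 and 9. Lamp2, the companion of Lamp1 that also serves chaperone-mediated autophagy, had 178 to 227 CPM in C57BL/6J libraries and 209 to 261 CPM in Rag2-/-γc-/- libraries. Its log2 fold change of -0.22 ± 0.10 was not past the threshold (standard error; in edgeR, adjusted p = 0.194). Cd68, a macrosialin gene used as a macrophage stain, was at 153 to 227 CPM in C57BL/6J libraries and 139 to 208 CPM in Rag2-/-γc-/- libraries, with a log2 fold change of 0.05. Scarb2, the receptor that carries glucocerebrosidase, Mcoln1, a calcium channel, Cln3, a membrane protein mutated in Batten disease, and Atp6v1h, a proton pump subunit, had log2 fold changes from -0.22 to 0.23. By DESeq2, too, Lamp1 was the only 1 of the 7 past the threshold, beside 14.0% of all genes it tested.

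Glycosidases and sulfatases, which take apart glycoproteins, glycolipids and glycosaminoglycans, had few calls. Of 13 tested, 1 fell and 1 rose in edgeR, beside 4.47% lower and 3.32% higher of all tested genes. The median log2 fold change was -0.05. DESeq2 called 3 lower and 1 higher, beside 8.27% and 5.75% of all genes it tested. At an unadjusted p under 0.05 in edgeR there were 3 lower and 1 higher, beside 14.1% and 11.5% of all tested genes. Galns encodes a sulfatase that acts on keratan sulphate (chromosome 8, 122578238 to 122611487). It had 23.3, 28.7, 28.1, 23.1 and 26.4 CPM in C57BL/6J libraries, against 40.0, 38.4, 38.7, 32.2 and 31.2 CPM in Rag2-/-γc-/- libraries 7 to 11, with no overlap. Galns fell by 0.48 ± 0.11 on the log2 scale (standard error; in edgeR, adjusted p = 0.0216), and did not pass with the omission of any 1 of C57BL/6J libraries 5 and 6 and Rag2-/-γc-/- libraries 8 and 9 (highest adjusted p 0.061). A gene on the opposite strand overlaps Galns and averaged 934.2 expected counts (log2 fold change 0.43, adjusted p = 0.282), so reads of the pair may not be told apart.

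Arsb encodes the sulfatase of dermatan and chondroitin sulphate (chromosome 13, 93771679 to 93943016). Its values were 114, 84.6, 104, 130 and 131 CPM in C57BL/6J libraries, against 43.0, 69.1, 65.1, 87.9 and 78.2 CPM in Rag2-/-γc-/- libraries 7 to 11. C57BL/6J library 3 lay just under Rag2-/-γc-/- library 10. The increase of 0.71 ± 0.18 on the log2 scale (standard error; in edgeR, adjusted p = 0.0361) did not pass with the omission of any 1 of C57BL/6J libraries 1, 4, 5 and 6 and Rag2-/-γc-/- libraries 8 and 9 (highest adjusted p 0.093), and was 0.44 (adjusted p = 0.32) without libraries 7, 8 and 9. A long non-coding gene on the opposite strand within Arsb averaged 378.1 expected counts and had a log2 fold change of 1.65 (edgeR adjusted p = 0.0206).

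Hexa, for the alpha chain of the hexosaminidase that breaks down gangliosides, was the most abundant glycosidase gene per kilobase. It had 491, 513, 495, 542 and 658 CPM in C57BL/6J libraries, against 284, 373, 390, 626 and 507 CPM in Rag2-/-γc-/- libraries 7 to 11. Libraries 7, 8 and 9 were the 3 lowest, and libraries 10 and 11 lay within the C57BL/6J range. The log2 fold change of Hexa was 0.31 ± 0.19 (standard error; in edgeR, adjusted p = 0.31), and -0.06 without libraries 7, 8 and 9. Man2b1 (alpha-mannosidase), Gusb (beta-glucuronidase) and Fuca1 (alpha-fucosidase) were also well expressed and had log2 fold changes of 0.02, -0.05 and -0.07. Glb1, for beta-galactosidase, and Gaa, for the alpha-glucosidase of glycogen, were at -0.45 ± 0.14 and -0.31 ± 0.10 (standard error; in edgeR, adjusted p = 0.0705 and 0.0783), and both passed in DESeq2 (adjusted p = 0.025 and 0.026). Arsa, Ids, Idua, Naglu and Gla, whose loss causes storage diseases of sulphatides, glycosaminoglycans or globosides, had log2 fold changes from -0.27 to 0.31, none past the threshold.

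The 6 genes for lipid breakdown included the most abundant lysosomal transcript, and edgeR called 0 of them. Psap encodes prosaposin, the precursor of the saposins that lift lipids out of membranes for the enzymes. It reached 2570 CPM per kb of exon in C57BL/6J recipients and 2365 CPM per kb in Rag2-/-γc-/- recipients, the highest of the 48 genes. In CPM, Psap had 5758, 7287, 7254, 6722 and 8244 in C57BL/6J libraries, against 6639, 6444, 6642, 6646 and 6080 in Rag2-/-γc-/- libraries 7 to 11. C57BL/6J libraries 1 and 6 were the lowest and the highest of all 10, and the log2 fold change was 0.12 ± 0.10 (standard error; in edgeR, adjusted p = 0.441). Gm2a, for the activator protein that presents ganglioside GM2 to hexosaminidase, had 1855, 2393, 2201, 1896 and 2624 CPM in C57BL/6J libraries, against 1913, 1857, 1890, 1505 and 1615 CPM in Rag2-/-γc-/- libraries 7 to 11. The groups overlapped through C57BL/6J libraries 1 and 5, at a log2 fold change of 0.32 ± 0.12 (standard error; in edgeR, adjusted p = 0.117).

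Smpd1, for acid sphingomyelinase, came nearest to the threshold in this role. It had 9.19, 10.1, 11.1, 9.94 and 10.9 CPM in C57BL/6J libraries, against 12.5, 13.3, 13.1, 13.1 and 12.7 CPM in Rag2-/-γc-/- libraries 7 to 11. The groups did not overlap and the Rag2-/-γc-/- values spanned a narrow range that included libraries 10 and 11. The log2 fold change was -0.33 ± 0.09 (standard error; in edgeR, adjusted p = 0.0511), and the gene passed with RLE normalisation (adjusted p = 0.048), in DESeq2 (0.0018) and with the stricter count filter (0.041). Ppt1 (palmitoyl-protein thioesterase), Lipa (acid lipase) and Asah1 (acid ceramidase) had log2 fold changes of 0.45, -0.28 and -0.16. Ppt1 overlaps Cap1 on the opposite strand, which averaged 55758.0 expected counts. Of the 6 genes, 2 were higher and 2 lower at an unadjusted p under 0.05 in edgeR, beside 11.5% higher and 14.1% lower of all tested genes. DESeq2 called 1 lower, beside 8.27% of all genes it tested, and limma-voom called none.

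Of the 3 transcription factors of lysosomal genes, 1 rose, beside 3.32% of all tested genes, and the others did not pass the test. Mitf, known from melanocytes, osteoclasts and mast cells (chromosome 6, 97807058 to 98021349), had 6.84, 9.75, 10.1, 8.38 and 10.7 CPM in C57BL/6J libraries, against 6.75, 6.48, 5.07, 5.23 and 5.56 CPM in Rag2-/-γc-/- libraries 7 to 11. The groups did not overlap, though C57BL/6J library 1 and Rag2-/-γc-/- library 7 nearly met. Mitf rose by 0.65 ± 0.15 on the log2 scale (standard error; in edgeR, adjusted p = 0.0239), but did not pass with the omission of any 1 of C57BL/6J libraries 3, 4 and 6 and Rag2-/-γc-/- library 9 (highest adjusted p 0.069), and was at 0.77 (adjusted p = 0.1) without libraries 7, 8 and 9. Tfeb and Tfe3 were more abundant per kilobase, at 5.66 and 6.38 CPM per kb in C57BL/6J recipients and 7.37 and 7.21 CPM per kb in Rag2-/-γc-/- recipients, where Mitf had 1.48 and 0.939 CPM per kb in the 2 groups. Tfeb, at 27.5 to 39.3 CPM in C57BL/6J libraries and 36.6 to 47.3 CPM in Rag2-/-γc-/- libraries, had a log2 fold change of -0.38 ± 0.12 (standard error; in edgeR, adjusted p = 0.0804). It passed in DESeq2 (adjusted p = 0.028) and without C57BL/6J library 1 (adjusted p = 0.031). Tfe3 was at -0.18 ± 0.10 (standard error; in edgeR, adjusted p = 0.268).

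Of the 5 sorting genes, the sortilin-family receptors Sorl1 and Sort1 fell, beside 4.47% of all tested genes. The mannose 6-phosphate receptors did not pass the test. Sorl1, for a large receptor that moves cargo between the Golgi and endosomes (chromosome 9, 41964720 to 42124297, minus strand), showed the largest decrease of the 47 genes. It had 21.4, 8.05, 4.85, 10.4 and 3.12 CPM in C57BL/6J libraries, against 124, 109, 96.2, 48.6 and 53.7 CPM in Rag2-/-γc-/- libraries 7 to 11. Every Rag2-/-γc-/- library lay above every C57BL/6J library, and libraries 10 and 11 were the lower members of their group. Sorl1 fell by 3.18 ± 0.49 on the log2 scale (standard error; in edgeR, adjusted p = 0.00277), with -3.70 to -2.95 in the fits without 1 library. Without libraries 7, 8 and 9 it was at -2.42 (adjusted p = 0.076).

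Sort1 encodes sortilin, which binds prosaposin and progranulin (chromosome 3, 108284091 to 108361511), and was scarce. It had 1.44, 1.09, 0.406, 0.566 and 0.403 CPM in C57BL/6J libraries, against 1.93, 5.40, 4.02, 0.719 and 2.61 CPM in Rag2-/-γc-/- libraries 7 to 11. Rag2-/-γc-/- library 10 lay within the C57BL/6J range. The log2 fold change of -1.92 ± 0.53 (standard error; in edgeR, adjusted p = 0.0478) kept its call only where C57BL/6J library 1 or Rag2-/-γc-/- library 10 was left out. It lost the call without any 1 of the other 8 (highest adjusted p 0.13) and in limma-voom (adjusted p = 0.078), and was -1.10 (adjusted p = 0.54) without libraries 7, 8 and 9. M6pr, for the cation-dependent mannose 6-phosphate receptor, was at 506 to 679 CPM in C57BL/6J libraries and 514 to 572 CPM in Rag2-/-γc-/- libraries, with a log2 fold change of 0.11 ± 0.09 (standard error; in edgeR, adjusted p = 0.431). Igf2r, for the larger receptor that also binds insulin-like growth factor, was at 0.29 ± 0.21, and Grn, for progranulin, at 0.09 ± 0.11 (standard error; in edgeR, adjusted p = 0.39 and 0.612). The sorting genes thus spanned from 0.103 CPM per kb (Sort1) to 209 CPM per kb (Grn) in C57BL/6J recipients, and from 0.388 CPM per kb (Sort1) to 197 CPM per kb (Grn) in Rag2-/-γc-/- recipients.

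**Figure D3:**
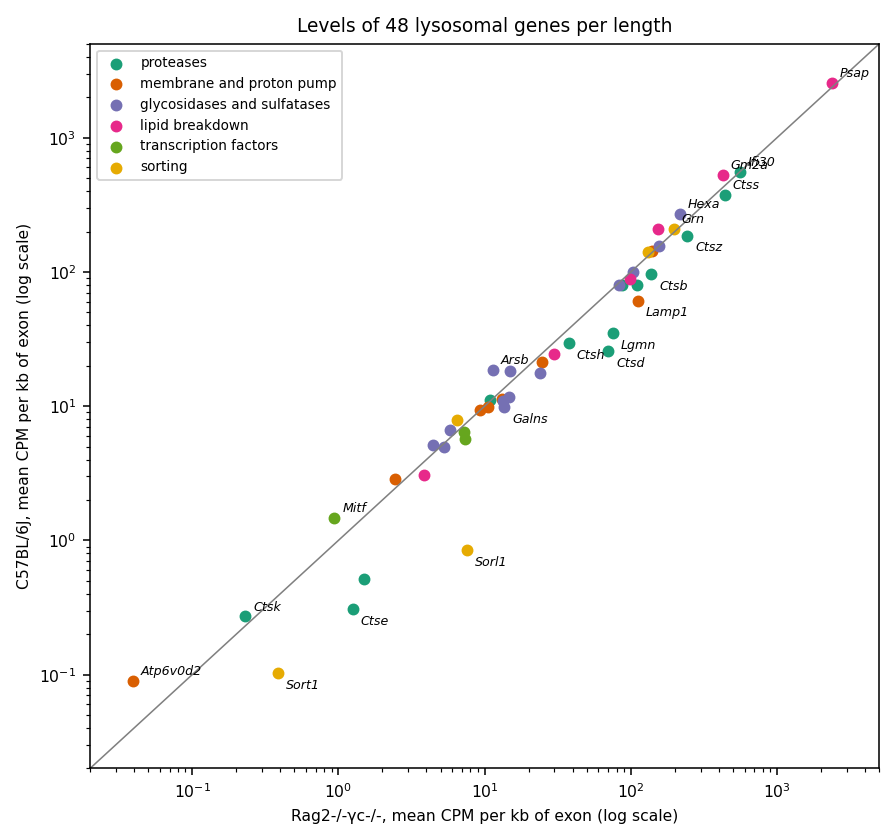
Mean level of each of the 48 lysosomal genes per kilobase of exon in C57BL/6J libraries (vertical, log scale) and Rag2-/-γc-/- libraries (horizontal, log scale), coloured by role, with a diagonal of equal levels. Genes past the threshold and those with means over all libraries above 200 or below 1 CPM per kb are named. Psap stands at the top with 2570 and 2365 CPM per kb, and Sorl1 lies farthest below the diagonal among genes above 1 CPM per kb over all libraries, at 0.845 against 7.62.

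Further lysosomal genes outside these 48 came from a list of 103. Of 98 tested, 7 fell (7.14%) and 2 rose (2.04%), or 9.18% in either direction beside 7.79% of all tested genes, with a median log2 fold change of -0.02. C57BL/6J and Rag2-/-γc-/- values were fully separate for 12 of the 98 (12.2%), beside 8.50% of all tested genes. Rragd, a GTPase gene of the nutrient-sensing complex on the lysosomal surface and a known target of TFEB-type factors, had 0.397, 0.296, 0.355, 0.479 and 0.226 CPM in C57BL/6J libraries, against 3.20, 3.64, 2.93, 1.21 and 1.44 CPM in Rag2-/-γc-/- libraries 7 to 11. It fell by 2.82 ± 0.37 on the log2 scale (standard error; in edgeR, adjusted p = 0.00102) and stayed past the threshold at -1.90 (adjusted p = 0.034) without libraries 7, 8 and 9. The groups of Rragd did not overlap.

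Atp6v0a1, for a membrane subunit of the proton pump, had 33.5, 49.2, 57.1, 45.9 and 35.8 CPM in C57BL/6J libraries, against 109.8, 88.0, 77.9, 59.9 and 83.4 CPM in Rag2-/-γc-/- libraries 7 to 11. It fell by 0.92 on the log2 scale, and the other 15 pump subunit genes were not past the threshold in edgeR. Slc29a3, for a nucleoside transporter, had 20.4, 31.9, 28.9, 22.9 and 26.3 CPM in C57BL/6J libraries, against 46.6, 46.6, 46.9, 42.7 and 37.5 CPM in Rag2-/-γc-/- libraries 7 to 11. Npc2, for a cholesterol carrier, had 97.2, 95.7, 93.2, 96.6 and 97.7 CPM in C57BL/6J libraries, against 163.9, 158, 151, 112 and 129.6 CPM in Rag2-/-γc-/- libraries 7 to 11. None of these 3 overlapped between the groups, and the C57BL/6J values of Npc2 lay close together.

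The sulfatase gene Arsg fell by 1.49 on the log2 scale, with 0.672, 0.642, 0.787, 0.674 and 0.553 CPM in C57BL/6J libraries, against 1.90, 3.03, 1.92, 1.24 and 1.29 CPM in Rag2-/-γc-/- libraries 7 to 11. Hgsnat, for a heparan sulphate acetyltransferase, fell by 0.46, with 25.8, 25.8, 32.1, 29.6 and 26.6 CPM in C57BL/6J libraries, against 39.7, 45.8, 43.3, 31.8 and 32.05 CPM in Rag2-/-γc-/- libraries 7 to 11. Hgsnat overlapped through C57BL/6J library 4, and Arsg did not overlap. The carboxypeptidase gene Scpep1 rose by 0.77, with 65.97, 79.3, 85.9, 92.7 and 98.8 CPM in C57BL/6J libraries, against 63.3, 52.1, 49.0, 40.1 and 43.6 CPM in Rag2-/-γc-/- libraries 7 to 11. Laptm4b, for a lysosomal membrane protein, rose by 0.56, with 26.8, 29.0, 32.2, 37.4 and 41.1 CPM in C57BL/6J libraries, against 21.4, 20.3, 22.8, 24.1 and 24.3 CPM in Rag2-/-γc-/- libraries 7 to 11. Neither gene that rose overlapped between the groups. The adjusted p-values of the 9 called genes in edgeR ran from 0.00102 to 0.0461, and Rragd and Scpep1 were the 2 of them past the threshold without libraries 7, 8 and 9.

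Hgsnat and Laptm4b lost their calls when single libraries were left out. Hgsnat lost it without any 1 library other than Rag2-/-γc-/- 10 or 11 (highest adjusted p 0.12), and Laptm4b without any 1 of C57BL/6J libraries 5 and 6 and Rag2-/-γc-/- libraries 7, 8 and 9 (highest adjusted p 0.059). Of the natural inhibitors of cathepsins, Cst3, for cystatin C, was at 8174 to 11270 CPM in C57BL/6J libraries and 8927 to 10150 CPM in Rag2-/-γc-/- libraries. None of the 3 tested inhibitor genes was past the threshold in edgeR, DESeq2 or limma-voom, and none had an unadjusted p under 0.05 in edgeR (0 of 3).

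The level of macrophage markers differed between libraries, and Ctsl, Ctsd, Lamp1 and Sorl1 are set beside it here. The 12 macrophage markers, 11 of which averaged at least 1 CPM and none of which was at 0 in any library, summed to 37.1 to 252 CPM in C57BL/6J libraries and 206 to 417 CPM in Rag2-/-γc-/- libraries. Every marker but Timd4 had a negative log2 fold change. Marco (-2.67) and Slc40a1 (-1.74) fell past the threshold, and Timd4 (1.72) rose. The others ran from -1.81 (Cd163) to -0.15 (Cd5l) and were not past the threshold, among them Mertk (-1.67), Adgre1 (-1.48) and the complement genes C1qa, C1qb and C1qc. No association of any gene with this sum was computed. Ctsl, for cathepsin L, had 7.45, 1.56, 5.05, 1.94 and 0.830 CPM in C57BL/6J libraries, against 9.78, 15.4, 12.9, 3.53 and 7.23 CPM in Rag2-/-γc-/- libraries 7 to 11. C57BL/6J libraries 1 and 4, which had the highest marker sums of their group (252 and 228 CPM), also had its highest Ctsl values. Rag2-/-γc-/- libraries 7 and 10, with nearly equal sums (206 and 207 CPM), had 9.78 and 3.53 CPM of Ctsl. The log2 fold change of Ctsl was -1.55 ± 0.56 (standard error; in edgeR, adjusted p = 0.117), and it passed in DESeq2 (adjusted p = 0.032), without C57BL/6J library 1 (-2.06, adjusted p = 0.048) and without Rag2-/-γc-/- library 10 (-1.76, adjusted p = 0.046). Without libraries 7, 8 and 9 it was -0.68 (adjusted p = 0.81).

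Ctsd also had its highest C57BL/6J values in libraries 1 and 4 and its highest Rag2-/-γc-/- value in library 8, where the marker sum was 417 CPM. The macrophage marker sums were 252 and 228 CPM in C57BL/6J libraries 1 and 4, and 206 and 207 CPM in Rag2-/-γc-/- libraries 7 and 10. In C57BL/6J libraries 1 and 4 Ctsd had 95.05 and 70.3 CPM, Lamp1 169 and 178 CPM, and Sorl1 21.4 and 4.85 CPM. In Rag2-/-γc-/- libraries 7 and 10 Ctsd had 143 and 151 CPM, Lamp1 331 and 271 CPM, and Sorl1 124 and 48.6 CPM. Libraries 1 and 4 are the C57BL/6J libraries whose sums reach the Rag2-/-γc-/- range. Libraries 7 and 10 have the lowest sums of the Rag2-/-γc-/- group. Picked by their sums, these libraries are no matched comparison, and C57BL/6J library 1 also stood apart from its group in other measures. The sum is carried by the complement genes and Slc40a1. Marco had 0.672 and 2.49 CPM in C57BL/6J libraries 1 and 4, against 6.02 and 2.52 CPM in Rag2-/-γc-/- libraries 7 and 10. The part of macrophage RNA in the lysosomal changes was not tested. Markers of monocytes summed to 22.6 to 58.4 CPM in C57BL/6J libraries and 58.3 to 107 CPM in Rag2-/-γc-/- libraries. Csf1r held most of that sum, with means of 32.1 and 70.3 CPM, and fell by 1.13 on the log2 scale (in edgeR, adjusted p = 0.0341). Ccr2 (0.85) and Ly6c2 (0.67) had positive log2 fold changes, F13a1 (-0.88) and Cx3cr1 (-0.36) negative ones, none past the threshold. Of the T cell markers, Cd8a held most of the summed level, with 48.6 to 107 CPM in C57BL/6J libraries and 14.9 to 41.2 CPM in Rag2-/-γc-/- libraries. Trac and Trbc2 were at 0 in every Rag2-/-γc-/- library, where Cd8a was still present, so Cd8a is no measure of T cells alone here. Cd3e was at 0.152 to 3.42 CPM in C57BL/6J libraries and 0 to 0.0327 CPM in Rag2-/-γc-/- libraries. Conventional dendritic cell markers summed to 3400 to 4600 CPM in C57BL/6J libraries and 2800 to 3620 CPM in Rag2-/-γc-/- libraries. Erythroid markers summed to 9.56 to 99.7 CPM in C57BL/6J libraries and 45.8 to 159 CPM in Rag2-/-γc-/- libraries. Plasmacytoid dendritic cell markers summed to 127 to 171 CPM in C57BL/6J libraries and 167 to 236 CPM in Rag2-/-γc-/- libraries. Bst2, Pacsin1 and Tcf4 held nearly all of that sum. Of these, only Tcf4 passed the test, falling by 1.49 on the log2 scale (in edgeR, adjusted p = 0.00961). Siglech, Ccr9 and Cox6a2 were scarce. Their means were 0.233, 0.368 and 0.0234 CPM in C57BL/6J libraries, against 0.145, 0.248 and 0.0317 CPM in Rag2-/-γc-/- libraries. B and plasma cell markers were at 6.09 to 120 CPM in C57BL/6J libraries, with the highest sum in library 1, and at 2.51 to 3.72 CPM in Rag2-/-γc-/- libraries. Their part in the lysosomal changes was not tested.

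**Figure D4:**
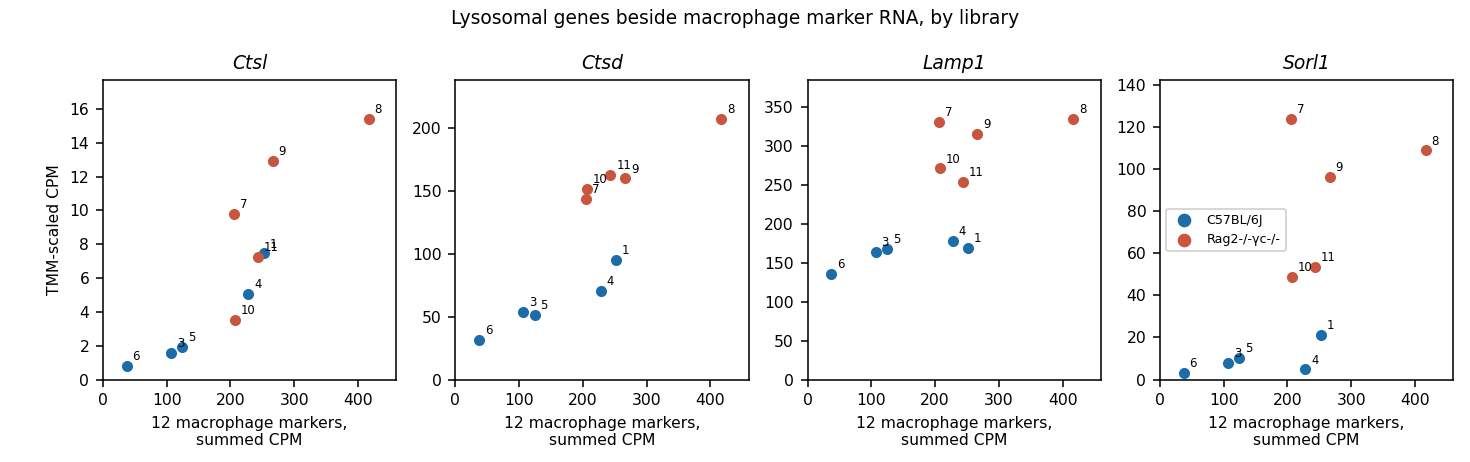
TMM-scaled CPM of Ctsl, Ctsd, Lamp1 and Sorl1 (vertical axes, from 0) against the summed CPM of 12 macrophage markers (horizontal axes) in the 10 libraries, numbered as in the labels, with C57BL/6J and Rag2-/-γc-/- libraries in different colours. C57BL/6J library 6 and Rag2-/-γc-/- library 8 have the lowest and highest marker sums. They also hold the lowest and highest values of Ctsl (0.830 and 15.4 CPM), Ctsd (31.6 and 207 CPM) and Lamp1 (136 and 334 CPM). Sorl1 is lowest in C57BL/6J library 6 (3.12 CPM) and highest in Rag2-/-γc-/- library 7 (124 CPM). Lamp1 is at 136 to 178 CPM in C57BL/6J libraries and 253 to 334 CPM in Rag2-/-γc-/- libraries.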

How the data were processed

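Poly(A)-selected RNA of GFP+ splenocytes was sequenced as single reads, per the labels' protocols. The authors deposited expected counts per Ensembl gene. The submitters' processing notes name cutadapt 1.11, STAR 2.5.2a, RSEM 1.2.30, edgeR and GRCm38. Their settings and the use of strand were not given in the sources read, so genes that overlap on opposite strands may share reads. Besides those named above, such pairs included Ctsz with Th1l (1700.1 expected counts on average) and Ctsa with Pltp (5970.7, log2 fold change 0.76). Others were Cln3 with Apobr (7808.7) and Idua with Dgkq (619.7). Expected counts share out reads that match several genes, so close paralogs depend on that step.

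Rounded counts were tested with edgeR 4.0.16 in R 4.3.3 (quasi-likelihood F test of group, TMM, filterByExpr at minimum count 10 and total 15), with Benjamini-Hochberg adjustment across 13966 genes. Log2 fold changes are C57BL/6J over Rag2-/-γc-/-, each standard error is the unshrunken coefficient over the root of F, and CPM are TMM-scaled. CPM per kb used exon unions of GENCODE M21, which held 95.3% of identifiers. The test was checked on simulated data.

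Alternatives were RLE, DESeq2 1.42.0, limma-voom (limma 3.58.1) with and without quality weights, other filters and left-out libraries. No library pair within a group was a duplicate (chi-square per degree of freedom 8.64 to 203).

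Members, lists and tests were chosen with earlier results of these data known. Values of every library are given for members past the threshold, members without overlap, the 5 highest per kb and the smallest p of a role with no call, and for up to 4 further lysosomal genes per list and direction. The library values of Ctsl and Ctsc fall outside this rule and were chosen after they were seen. Of the further lysosomal genes past the threshold, 1 is counted but not reported here.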

Additional observations from a re-analysis of the deposited data

Results flagged for a closer look

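In 2 of 96 groups of 5 libraries looked at, 1 library stood apart from the other 4, a number of flags that chance can give at the 95% critical value used. Ctse was at 1.741 CPM in C57BL/6J library 1, against 0.609 to 0.888 CPM in the other C57BL/6J libraries. Ctsk was at 1.472 CPM in C57BL/6J library 4, against 0.0305 to 0.296 CPM in the other C57BL/6J libraries. Omitting library 4 gave Ctsk a log2 fold change of -1.25, beside 0.20 with all 10 libraries.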

How the results depend on the processing

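No paired analysis was possible because the library numbers in the titles differ between the groups. All tested genes gave 464 higher and 624 lower calls in edgeR, 803 and 1155 in DESeq2, 3306 and 3217 in limma-voom with sample quality weights, 2786 and 2518 without Rag2-/-γc-/- libraries 10 and 11, 148 and 127 without libraries 7, 8 and 9, and 275 to 1076 and 304 to 1323 with 1 library left out. In either direction, the calls over all genes were 7.79% of those tested in edgeR, 14.0% in DESeq2 and 46.7% with quality weights. They were 36.7% without libraries 10 and 11, 1.88% without libraries 7, 8 and 9, and 4.10% to 16.9% with 1 library left out. The 47 lysosomal genes gave 2 higher and 10 lower calls in edgeR, 10 and 21 with quality weights, 5 and 19 without libraries 10 and 11, and 0 and 1 (Lamp1) without libraries 7, 8 and 9. With 1 library left out they gave 0 to 4 higher and 5 to 14 lower calls, with 5 lower on omitting C57BL/6J library 5, C57BL/6J library 6, Rag2-/-γc-/- library 8 or Rag2-/-γc-/- library 9, 6 on omitting library 7 and 14 on omitting library 10. Of the 12 calls, Ctsb, Ctsd, Ctse, Lamp1 and Sorl1 passed in every such fit. The further lysosomal genes gave 2 higher and 7 lower calls in edgeR, 9 and 12 in DESeq2, 25 and 19 with quality weights, 15 and 18 without libraries 10 and 11, 1 and 2 without libraries 7, 8 and 9, and 1 to 8 and 5 to 11 with 1 library left out. Ctsh did not pass with no count filter (-0.34, edgeR adjusted p = 0.069). None of the sign changes concerned a called gene, and the cause was not tested. Without libraries 7, 8 and 9 the log2 fold changes that changed sign were Ctsa 0.09, Ctsc 0.10, Ctss 0.22, Tpp1 -0.01, Cd68 -0.10, Mcoln1 -0.01, Gla 0.21, Hexa -0.06, Fuca1 0.30, Naglu -0.04 and Asah1 0.31. Ctsk changed to -0.51 in limma-voom, -0.27 with quality weights, -0.29 without libraries 10 and 11, -1.25 on omitting library 4 and -0.04 on omitting library 10. Quality weights changed Cln3 to 0.11 and Atp6v1h to -0.11, and the fit without libraries 10 and 11 changed Atp6v1h to -0.05 and Grn to -0.01. With 1 library left out, the ranges that crossed 0 were Cln3 -0.23 to 0.05, Atp6v1h -0.05 to 0.05, Gusb -0.10 to 0.03, Man2b1 -0.02 to 0.11, Tpp1 -0.02 to 0.11, Cd68 -0.04 to 0.12, Gla -0.16 to 0.01, Fuca1 -0.18 to 0.03 and Ctsk -1.25 to 0.57.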
